A study of Mus musculus with 10 samples.

Results

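The assembly factors of the respiratory complexes are proteins that help build complexes I to V of the mitochondrial inner membrane without staying in the finished enzymes. The group described here was a list of 41 genes: 13 for complex I (NADH dehydrogenase), 3 for complex II (succinate dehydrogenase), 6 for complex III (the cytochrome bc complex), 16 for complex IV (cytochrome c oxidase) and 3 for complex V (ATP synthase). They were found by gene symbol among the 24972 genes of the deposited tables, and all 41 were present. The rule used gene names, not measured values.

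The tissue was cortex, taken after perfusion with ice-cold PBS from male mice of the C57BL/6 background at 2.5 months of age. There were 5 animals of the genotype Atad3 nKO and 5 of the genotype Atad3 control, their littermates, and total RNA was sequenced. What nKO stands for, which exons are deleted and in which cells a deletion would act are not stated in the labels. Each library was 1 animal, so the spread below holds differences between animals together with those between libraries. In whole cortex, fewer cells of a type and less RNA per cell cannot be told apart.

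Respiratory complexes are built stepwise from modules that assembly factors hold, modify or supply with cofactors such as heme, copper, flavin and iron-sulfur clusters. Some factors act in the matrix on the water-soluble parts of a complex, and others sit in the inner membrane and receive newly made subunits there. Inherited loss of several single factors causes severe disease of brain and muscle in humans. Their roles, as given below, were worked out mainly in human cells and yeast. Atad3a encodes an ATPase anchored in the same inner membrane.

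Short motifs known from promoters of nuclear mitochondrial genes were searched near the starts of the listed genes. The letters CCGGAAG, a core form of the site of ETS family factors such as GABPA, were the most frequent of the 4 motifs. RefSeq windows of GRCm38.p6, the assembly of mm10, reaching from 250 bases before to 50 bases after a gene's start, were at hand for 35 of the 41 genes. On either strand the ETS letters occurred in 13 of these 35 (37.1%), against 18.4% of 11196 tested genes with a window and 8.9% of all 32851 windows. The letters GCGCANGC (NRF1) occurred in 6 of 35 (17.1%; 21.5% of tested genes), AAGATGGC (YY1) in 5 of 35 (14.3%; 4.9%) and CAAGGTCA (ERR) in 1 of 35 (2.9%; 1.4%). YY1 and ETS letters can share the bases AAG where they abut. A match describes letters only. Stretches of 80 bases around the start of a gene each of complexes I to IV, and of a further complex I factor, show where the ETS letters lay on either strand, here in capitals, as read along the gene's strand.
Timmdc1 (chr16:38522634-38522713, minus strand): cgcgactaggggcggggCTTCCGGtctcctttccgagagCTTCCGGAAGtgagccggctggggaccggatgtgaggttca
Ecsit (chr9:22085398-22085477, minus strand): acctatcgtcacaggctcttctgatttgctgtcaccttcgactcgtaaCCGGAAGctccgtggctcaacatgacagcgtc
Sdhaf1 (chr7:30322346-30322425, minus strand): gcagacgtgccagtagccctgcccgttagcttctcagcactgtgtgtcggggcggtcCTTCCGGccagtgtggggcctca
Bcs1l (chr1:74588239-74588318, plus strand): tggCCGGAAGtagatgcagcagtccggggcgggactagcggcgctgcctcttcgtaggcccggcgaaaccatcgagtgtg
Cox10 (chr11:64079443-64079522, minus strand): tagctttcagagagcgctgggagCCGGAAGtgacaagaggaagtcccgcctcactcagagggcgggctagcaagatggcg
Timmdc1 held 3 matches in this stretch, a pair of them overlapping on opposite strands, and Cox10 also held the YY1 letters near its end, in lower case. These 5 genes had log2 fold changes (nKO minus control) of -0.08 for Timmdc1, -0.12 for Ecsit, -0.16 for Sdhaf1, -0.11 for Bcs1l and -0.04 for Cox10. Of the 13 genes with ETS letters, only Cox15 at 0.01 and Cox20 at 0.09 lay above 0, and all others lay below. The median log2 fold change with and without the letters was -0.07 and -0.0093 for ETS and -0.0007 and -0.06 for NRF1. For YY1 it was -0.04 and -0.04. By median, genes with the letters were thus lower for ETS and higher for NRF1, and these differences were not tested.

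The genotype labels were checked first on the targeted gene. Atad3a (NCBI gene 108888; mm10 chromosome 4, 155740640 to 155761124) had 26.6, 22.5, 24.5, 22.5 and 22.2 CPM (counts scaled to library size by TMM) in controls 1 to 5 and 11.5, 11.7, 14.4, 8.95 and 10.8 CPM in nKO 1 to 5. Every nKO library lay below every control library. The mean fell from 23.7 ± 1.87 CPM to 11.5 ± 1.97 CPM (SD, n = 5 each), a log2 fold change of -1.04 (SE 0.12; edgeR adjusted p = 0.00634), which left 48.5% of the control level. Whether its reads come from outside a deleted part is not known from the labels.

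The libraries held 14812639 (nKO 5) to 24161361 (control 3) estimated counts, and the next deepest after control 3 was nKO 4 with 19097795. With edgeR's quasi-likelihood test, 2 of 14378 tested genes (0.0139%) passed a false discovery rate of 5%, Atad3a and Fam155a (log2 fold change -0.73), the latter named after its value was seen. Markers of cortical excitatory and inhibitory neurons, astrocytes, oligodendrocytes, microglia and endothelial cells had counts in every library, and 0 of them were called. The summed excitatory markers (8 genes) ranged from 1512 to 2357 CPM in controls and from 1806 to 2229 CPM in nKO. Of 5 choroid plexus markers, 3 had counts in every library, with sums of 5.74 to 10.4 CPM in controls and 7.22 to 9.43 CPM in nKO. The 6 striatal markers summed to 112 to 139 CPM and 120 to 143 CPM.

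All 41 assembly factors were transcribed in control cortex, at levels that spanned 45.4-fold in TPM, a unit that corrects for transcript length. The highest was Uqcc2 with 381 ± 35.2 TPM (SD, n = 5). Its protein is needed for the making and stability of cytochrome b, the mitochondrially encoded core of complex III. The next were Coa3 at 177 TPM, Cox14 at 142 TPM, Ttc19 at 121 TPM, Cox17 at 115 TPM and Surf1 at 101 TPM, all but Ttc19 factors of complex IV. The lowest were Lyrm7 at 8.39 ± 0.846 TPM (SD, n = 5), Sco1 at 9.37 TPM, Nubpl at 11.8 TPM and Cox15 at 12.6 TPM. The median factor stood at 39.3 TPM, against 24.8 TPM for all tested genes and 302 TPM for 75 nuclear subunits of the same complexes. Within a complex the factors differed less for complex II (2.03-fold between Sdhaf2 and Sdhaf4) than for complex III (45.4-fold between Lyrm7 and Uqcc2).

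**Figure D1:**
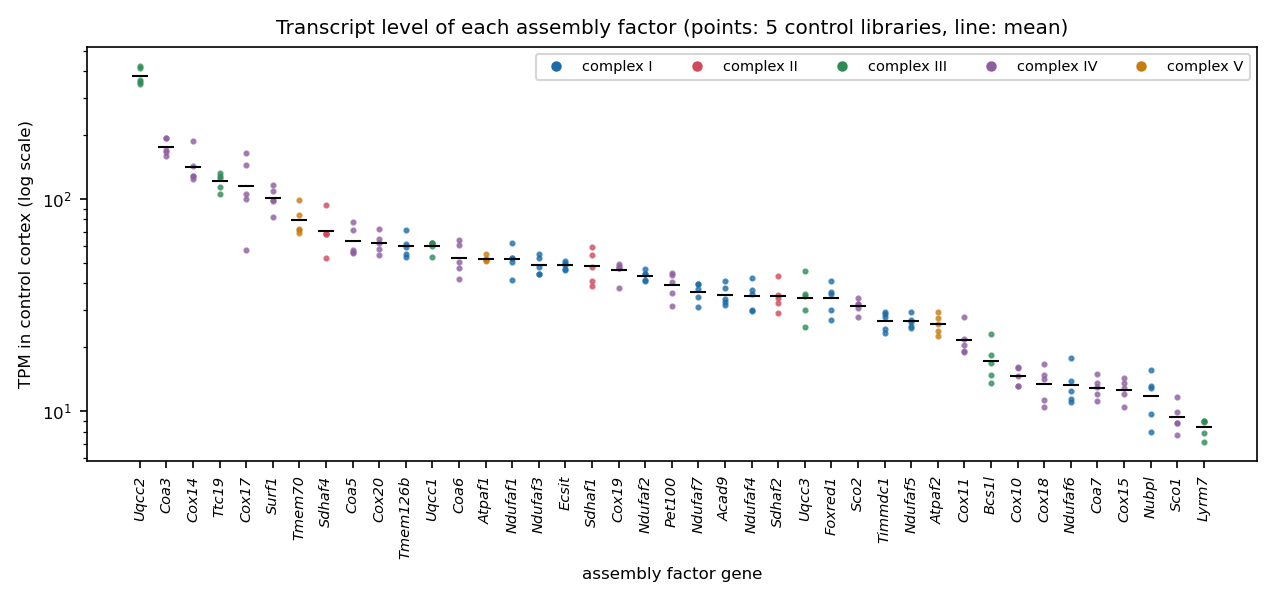
TPM of each of the 41 assembly factors in the 5 control libraries (points, colored by complex) with the mean (line), on a log axis, ordered from Uqcc2 (mean 381 TPM) to Lyrm7 (mean 8.39 TPM). Cox17 has the widest relative spread among controls.

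The spread among control libraries set how small a difference could be read. The coefficient of variation of the CPM over the 5 controls ran from 3.12% for Uqcc1 to 35.6% for Cox17, with a median of 14.0%, and it was above 20% for 6 genes (Nubpl, Sdhaf4, Sco2, Cox14, Cox17 and Coa6). Counts were lowest for Nubpl, with 56 in 1 library, and 7 genes had under 100 counts in some library. The median SE of a log2 fold change was 0.11.

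No assembly factor passed the test of a difference between nKO and control cortex, and the groups overlapped for each of the 41. Of the 41 genes, 27 had a log2 fold change below 0 (65.9%, where 52.2% of all tested genes did) and 14 above, with a median of -0.06 against -0.0078 over all tested genes. At 5%, 0 of 41 passed with edgeR (0.0139% of tested genes), and 0 with DESeq2 or limma-voom, and the smallest adjusted p was 0.820, 0.808 and 0.781 in these tests. With edgeR at an unadjusted p under 0.05, 2 factors, Ndufaf3 and Sco2, were lower (2.29% of tested genes were) and 0 were higher (3.36% were). The nKO libraries of 0 factors lay wholly below the controls (0.675% of tested genes did) and those of 0 lay wholly above (0.702% did). The 95% interval of the fold change lay within 1.5-fold of no change for 38 of the 41, all but Sco2, Cox17 and Nubpl. It did so for 10890 of the 14378 tested genes. A change of up to that size in a single factor is not shown to be absent.

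**Figure D2:**
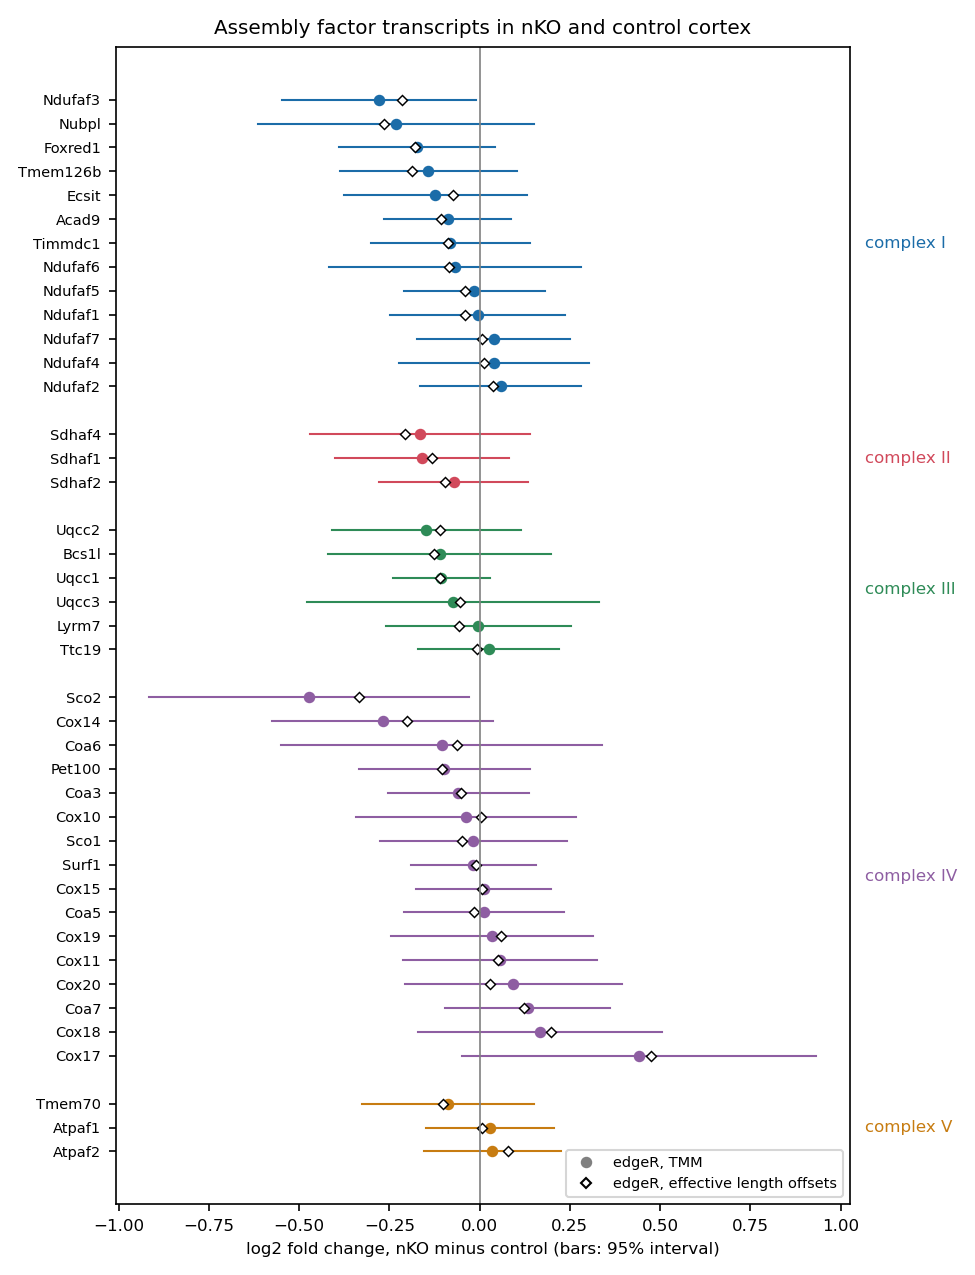
Log2 fold change (nKO minus control) of the 41 assembly factors by complex, with edgeR's 95% interval as bars; filled points are the TMM-scaled fit and open diamonds the fit with effective length offsets. The values run from -0.47 for Sco2 to 0.44 for Cox17, and 39 of 41 intervals include 0.

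Of the 13 complex I factors, 10 were below control and 3 above, with a median log2 fold change of -0.08, and 0 were called. The median was -0.03 without control 3 and -0.12 without control 2. Ndufaf1, Ecsit, Acad9, Tmem126b and Timmdc1 work together on the membrane arm of the enzyme, and their log2 fold changes were -0.0054, -0.12, -0.09, -0.14 and -0.08. Tmem126b (chromosome 7, 90468833 to 90475995), the complex I factor with the highest control TPM, had 14.9, 17.0, 20.3, 17.3 and 14.8 CPM in controls 1 to 5 and 15.1, 13.7, 16.7, 17.2 and 13.9 CPM in nKO 1 to 5. Control 3 was highest, and the other 9 libraries were mixed (log2 fold change -0.14, SE 0.11; edgeR adjusted p = 0.860). Without control 3 it was -0.07, and without control 1 and nKO 4 together it was -0.24.

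The other 8 complex I factors act on the matrix arm or late in assembly. Ndufaf3 (chromosome 9, 108565587 to 108567436), which works with Ndufaf4 early in the matrix arm, had 23.0, 15.3, 18.6, 17.4 and 19.2 CPM in controls 1 to 5 and 17.5, 16.2, 16.4, 12.4 and 14.8 CPM in nKO 1 to 5. Control 1 was highest and nKO 4 lowest, and controls 2 and 4 lay among the nKO libraries. The difference was -0.28 on the log2 scale (SE 0.12, 95% interval -0.55 to -0.0094; unadjusted p = 0.0435, edgeR adjusted p = 0.820). Without control 1 and nKO 4 together it was -0.14. Its partner Ndufaf4 stood at 0.04 (SE 0.12).

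Factors that modify or supply the matrix arm lay on both sides of 0. Nubpl, which delivers iron-sulfur clusters to complex I, stood at -0.23 (SE 0.18) on the log2 scale, and Foxred1, a flavin-dependent oxidoreductase, at -0.17 (SE 0.10). Without control 3 both were at -0.11. Without control 1 Nubpl stood at -0.34 and Foxred1 at -0.22. Without control 1 and nKO 4 together they stood at -0.41 (edgeR adjusted p = 0.508) and -0.21 (edgeR adjusted p = 0.548). Ndufaf5 and Ndufaf7, which modify arginines of matrix arm subunits, had -0.01 (SE 0.09) and 0.04 (SE 0.10). Ndufaf6 stood at -0.07 (SE 0.16) and the late-acting Ndufaf2 at 0.06 (SE 0.10).

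All 3 complex II factors were below control over the 10 libraries, with a median log2 fold change of -0.16, and 0 were called. Without control 3 the median was -0.03 and Sdhaf2 stood at 0.02. Sdhaf4 (chromosome 1, 23995939 to 24005640), which binds the flavin-carrying subunit Sdha before it joins its partner, had 10.8, 14.1, 19.2, 14.1 and 13.4 CPM in controls 1 to 5 and 12.4, 11.7, 14.8, 13.2 and 11.9 CPM in nKO 1 to 5. Control 3 was highest and control 1 lowest, so the nKO libraries lay wholly inside the control range (log2 fold change -0.17, SE 0.14; edgeR adjusted p = 0.860). Without control 3 it was -0.03 and without control 1 -0.25. Sdhaf1 (chromosome 7, 30321409 to 30322375), a factor for the iron-sulfur subunit Sdhb, had 10.8, 11.8, 12.8, 9.19 and 10.5 CPM in controls and 9.70, 9.17, 10.9, 10.2 and 9.44 CPM in nKO. The groups overlapped, with controls 1, 4 and 5 inside the nKO range (-0.16, SE 0.11; edgeR adjusted p = 0.849). Sdhaf2, needed for the attachment of flavin to Sdha, stood at -0.07 (SE 0.10).

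Of the 6 complex III factors, 5 were below control, with a median log2 fold change of -0.09, and 0 were called. Without control 3 this median was 0.01. Uqcc1 (chromosome 2, 155846886 to 155930310), a partner of Uqcc2 on cytochrome b, had 58.3, 60.9, 61.3, 63.0 and 59.1 CPM in controls 1 to 5 and 55.5, 54.4, 56.0, 56.1 and 59.2 CPM in nKO 1 to 5. It had the tightest controls of the whole group, and all nKO libraries but nKO 5 lay below the lowest control. The difference was small, -0.11 on the log2 scale (SE 0.06, 95% interval -0.24 to 0.03; unadjusted p = 0.111, edgeR adjusted p = 0.826).

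Uqcc2 (chromosome 17, 27122665 to 27133891) had 50.3, 33.7, 39.0, 33.5 and 35.0 CPM in controls 1 to 5 and 38.1, 34.9, 37.7, 28.8 and 33.4 CPM in nKO 1 to 5. Control 1 was highest and nKO 4 lowest, with the other 8 libraries between 33.4 and 39.0 CPM (log2 fold change -0.15, SE 0.12; edgeR adjusted p = 0.860). Without control 1 and nKO 4 it was 0.02. Factors of the Rieske iron-sulfur protein, the last catalytic subunit to be inserted into complex III, were mixed. Bcs1l, the translocase that moves that protein across the membrane, stood at -0.11 (SE 0.14). Its chaperone Lyrm7 stood at -0.0041 (SE 0.12) and Ttc19, which clears its fragments, at 0.02 (SE 0.09). Uqcc3 was at -0.07 (SE 0.19).

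The 16 complex IV factors split evenly, 8 below and 8 above control, with a median log2 fold change of -0.0033, and they held both ends of the range of the group. The median ran from -0.04 without control 2 to 0.04 without control 3. Both of those ends are copper delivery factors. Sco2 (chromosome 15, 89371630 to 89373891), a copper chaperone for the subunit COX2, had 13.9, 7.63, 6.52, 8.14 and 7.98 CPM in controls 1 to 5 and 5.49, 6.86, 7.18, 4.72 and 7.52 CPM in nKO 1 to 5. Control 1 stood far above the other controls, nKO 4 was lowest, and control 3 lay among the nKO libraries. The difference was -0.47 on the log2 scale (SE 0.21, 95% interval -0.92 to -0.03; unadjusted p = 0.0383, edgeR adjusted p = 0.820).

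The size of the Sco2 difference rested on few libraries. It was -0.25 without control 1 and -0.17 without control 1 and nKO 4. In TPM, where the deposited effective length is divided out, the controls had 34.0, 31.9, 27.9, 32.0 and 30.6 and nKO 21.0, 25.8, 27.1, 24.0 and 31.2. On that scale control 1 no longer stood apart, and all nKO libraries but nKO 5 lay below the lowest control (effective length offsets: log2 fold change -0.33, SE 0.13; unadjusted p = 0.0197, edgeR adjusted p = 0.485). Sco2 overlaps Ncaph2 (85.8 CPM) and Tymp (0.0889 CPM) in the annotation. Some other factors overlap a gene too, such as Cox20 (Hnrnpu, 702 CPM), Ttc19 (Ncor1, 373 CPM), Atpaf2 (Gid4, 90.5 CPM) and Surf1 (Surf2, 16.9 CPM). These overlaps compare whole gene spans from start to end, and whether exons overlap was not checked. The library kit marks strand, but no source used here says whether counting used it. Where exons do overlap, reads of the genes may not be told apart.

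Cox17, which hands copper to Sco1, Sco2 and Cox11, lay the other way, and is described here although chosen after its values were seen. It had 10.4, 7.58, 4.26, 12.5 and 11 CPM in controls 1 to 5 and 12.3, 12.2, 11.6, 11.7 and 14.2 CPM in nKO 1 to 5. Control 3 and control 2 were low, while control 4 lay among the nKO libraries. Its log2 fold change of 0.44 (SE 0.23; unadjusted p = 0.0728, edgeR adjusted p = 0.820) was 0.26 without control 3. With effective length offsets it was 0.48 (unadjusted p = 0.0478, edgeR adjusted p = 0.514). At 436 bases Cox17 is the shortest transcript of the group. The remaining copper factors lay nearer to 0, with Coa6 at -0.11 (SE 0.21), Sco1 at -0.02 (SE 0.12), Cox19 at 0.03 (SE 0.13) and Cox11 at 0.06 (SE 0.12).

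Complex IV factors with other tasks showed no common direction. Coa3 (chromosome 11, 101277970 to 101278948), which acts with Cox14 on newly made COX1, had 37.5, 33.4, 33.5, 39.6 and 39.1 CPM in controls 1 to 5 and 33.7, 37.2, 39.6, 30.3 and 34.9 CPM in nKO 1 to 5. The groups overlapped almost fully (log2 fold change -0.06, SE 0.09; edgeR adjusted p = 0.931). Cox14, also chosen after its values were seen, had 30.6 CPM in control 1 and 26.7 CPM in control 3, with the other 3 controls between 18.6 and 19.4 CPM and nKO between 17.3 and 20.2 CPM (-0.27, SE 0.14; edgeR adjusted p = 0.820). Without control 1 it was -0.14, and without control 1 and nKO 4 -0.12.

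The makers of heme a, Cox10 and Cox15, stood at -0.04 (SE 0.14) and 0.01 (SE 0.09), and Surf1, implicated in its insertion, at -0.02 (SE 0.08). The COX2 insertion factors Cox18 and Cox20 stood at 0.17 (SE 0.16) and 0.09 (SE 0.14). Coa7, Coa5 and Pet100 stood at 0.13 (SE 0.11), 0.01 (SE 0.10) and -0.10 (SE 0.11).

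Of the 3 complex V factors, 1 was below control, with a median log2 fold change of 0.03, and 0 were called. The median turned sign without nKO 4 (-0.02) or nKO 3 (-0.0017). Tmem70 (chromosome 1, 16665191 to 16678275), an inner membrane protein needed to form the ring of c subunits, had 39.7, 43.6, 51.8, 36.9 and 36.8 CPM in controls 1 to 5 and 34.8, 35.0, 40.7, 41.3 and 44.8 CPM in nKO 1 to 5. Control 3 was highest and the groups overlapped (log2 fold change -0.09, SE 0.11; edgeR adjusted p = 0.913). Without control 3 it was 0.0024, and without nKO 5 it was -0.14. Atpaf1 and Atpaf2, chaperones of the beta and alpha subunits of the catalytic head, stood at 0.03 (SE 0.08) and 0.04 (SE 0.09).

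**Figure D3:**
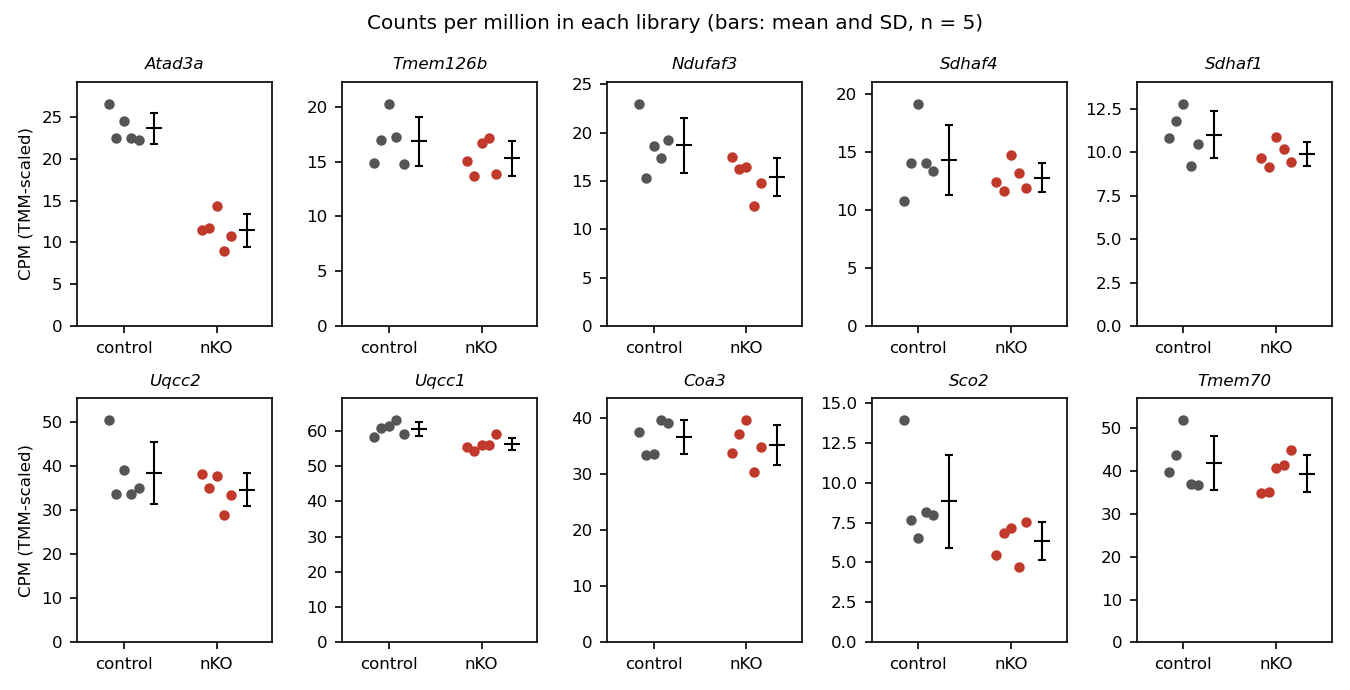
TMM-scaled CPM of Atad3a and of the 9 assembly factors named by rule in each library (gray, control 1 to 5 from left to right; red, nKO 1 to 5), with mean and SD (n = 5) as bars. Atad3a separates the genotypes, and the groups overlap for every assembly factor shown.

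A few libraries carried much of the spread within the group. Control 3, the library with the most estimated counts, was the highest in CPM for 16 of the 41 factors, against 17.9% of all tested genes. Control 1 was the highest for 9, against 25.6%. The lowest library was nKO 4 for 10 factors (19.7% of all tested genes). It was control 1 for 8 factors (19.5% of all tested genes) and nKO 1 for 8 (5.63%). The mean log2 CPM of the 41 genes was 4.25, 4.21, 4.33, 4.25 and 4.21 in controls 1 to 5 and 4.14, 4.18, 4.24, 4.21 and 4.27 in nKO 1 to 5. Control 3 was highest and nKO 1 and nKO 2 lowest. Without control 3, 20 of the 41 factors were below control and the median log2 fold change was 0.0024. In that fit 50.1% of all tested genes were below control, with a median of -0.0005. Summed TPM of all 41 gave no lower level in nKO, with 2318 ± 118 TPM in controls (SD, n = 5) against 2334 ± 65.2 TPM in nKO (SD, n = 5). Cox17 alone went from a mean of 114.5 TPM in controls to 164.8 TPM in nKO. That is more than the sums differ, so the other factors together were slightly lower in nKO. By mean TPM 20 of the 41 factors were lower in nKO, with 0 of them free of overlap.

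Transcript length moved with the fold change in these libraries. Over all tested genes Spearman's rho between log2 fold change and listed transcript length was 0.301, a description across genes that share the same 10 libraries, and it was 0.19 over the 41 factors. Without control 1 and nKO 4 the rho over all tested genes was 0.17. The median factor was 1669 bases long, against 2994 bases for all tested genes, and 24 of the 41 fell in the shortest quartile (up to 1904 bases). In that quartile 18 of 24 factors were below control with a median log2 fold change of -0.09, and all tested genes there had a median of -0.07 with 67.6% below control. The next quartiles held 9, 7 and 1 factors, with 5, 4 and 0 below control and medians of -0.01, -0.0041 and 0.01, beside -0.03, 0.0016 and 0.05 for all tested genes. With the trend on length removed from each library's counts, 26 factors were below control with a median of -0.02, and 0 were called. In that fit 54% of all tested genes were below control, with a median of -0.0122.

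**Figure D4:**
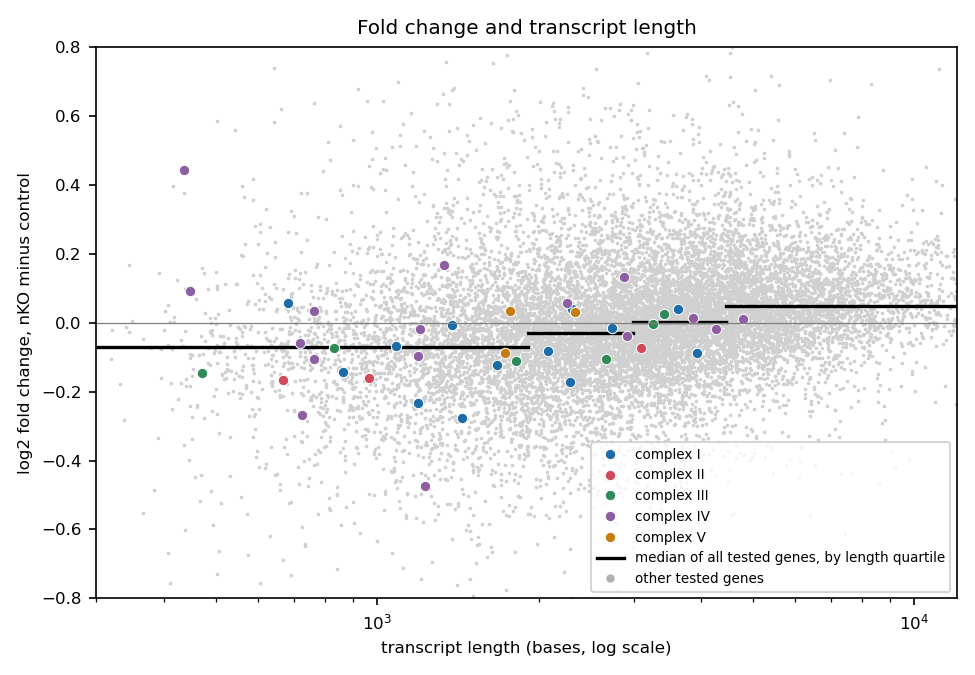
Log2 fold change (nKO minus control) against listed transcript length on a log axis for the 41 assembly factors (colored by complex) and other tested genes (gray; 200 tested genes and 0 factors lie outside the axes). Black lines mark the median of all tested genes in each length quartile, which rises from -0.07 to 0.05.

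Base composition and the deposited effective lengths moved with the factors as well. The effective length is the length over which reads can start, as the quantifier adjusted it, and it differed between libraries for the same gene. For Sco2 (GC content 59.4%, the highest of the group) it ran from 526 bases in nKO 4 to 984 bases in control 1, a 1.87-fold range, and for Ndufaf3 from 813 to 1240 bases in the same libraries. Of the 17 factors above a GC content of 50.3%, the median of tested genes, all 17 had their shortest effective length in nKO 4 and 12 their longest in control 1. In 16 of the other 24 the shortest was in control 1. The 17 factors of higher GC content were below control in 14 cases (median log2 fold change -0.11) and the other 24 in 13 cases (median -0.0048). All tested genes moved with GC content too. Spearman's rho between log2 fold change and GC content was -0.264 over 13904 tested genes and -0.316 over the 41 factors. The share of all tested genes below control on either side of that GC content is not given here. With effective length offsets, 13 of the 17 and 15 of the 24 were below control, with medians of -0.09 and -0.04. The part of length and base composition in the differences was not tested.

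**Figure D5:**
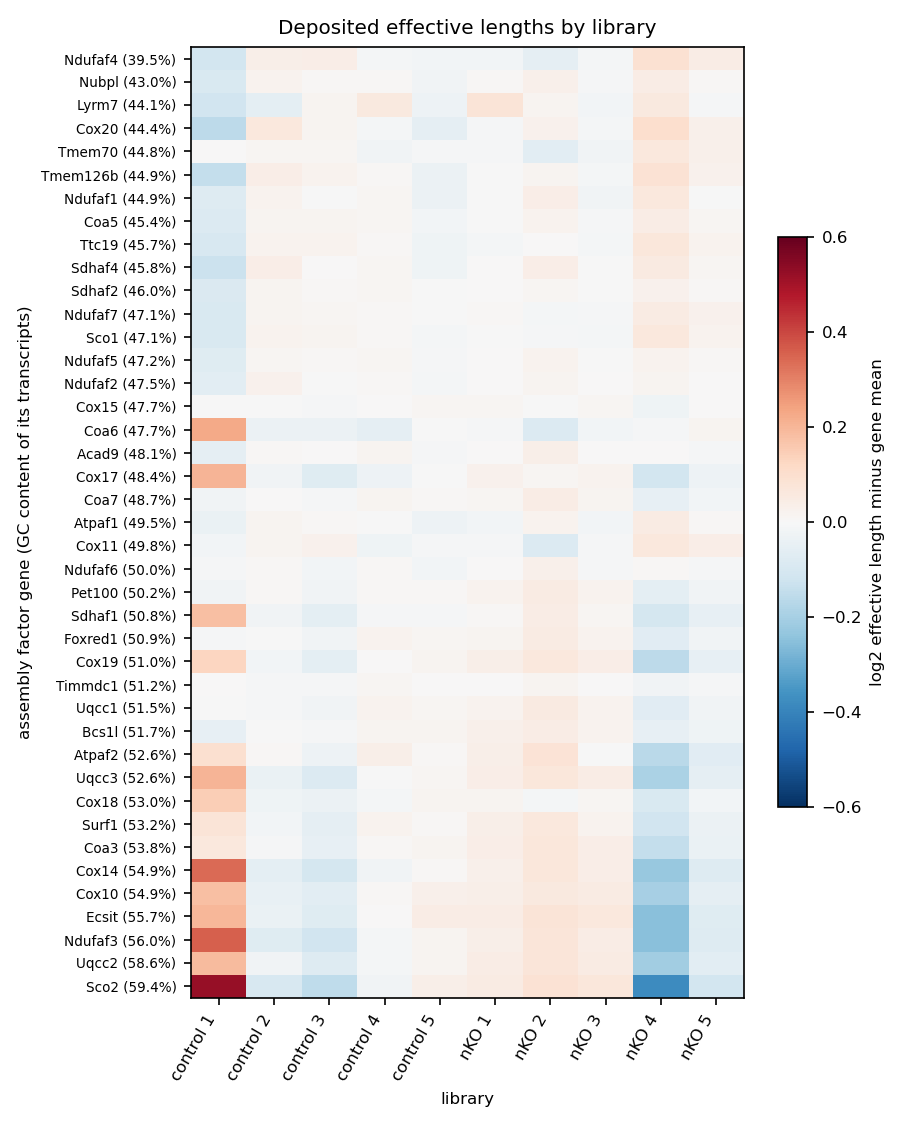
Deposited effective length of each assembly factor in each library, as log2 difference from the gene's mean over the 10 libraries, with genes ordered by GC content from Ndufaf4 (39.5%) to Sco2 (59.4%). Control 1 (left) and nKO 4 show opposite patterns that turn with GC content.

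At the level of transcripts, 28 factors had 1 listed transcript and 13 had more, up to 4. Of 64 listed transcripts 57 were tested and 0 were called by edgeR, where 0 of all 22343 tested transcripts were (0%), and 0 of the 57 reached an unadjusted p under 0.05. Isoform shares varied widely between libraries for some genes. For Atpaf2, the transcript NM_145427 made up 74.6 ± 10.3% of the gene's estimated counts in controls (SD, n = 5) and 53.7 ± 23.6% in nKO (SD, n = 5), with single nKO libraries from 24.4% to 82.5%. NM_001364118 made up 10.8 ± 10.7% and 32.8 ± 24.3%. For Surf1, the non-coding transcript NR_073420 took 58.3 ± 9.40% of the gene's estimated counts in controls (SD, n = 5) and 61.9 ± 5.30% in nKO (SD, n = 5). The division of reads between such transcripts is the quantifier's estimate, and its error was not given weight in the test.

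Further assembly factors and the subunits that the factors assemble were set beside the group in the same libraries. Of 27 other assembly factors, 24 were tested, 18 were below control and 6 above (median log2 fold change -0.06) and 0 were called. The smallest unadjusted p among them belonged to Tmem186 (-0.24, SE 0.10), Smim20 (-0.24, SE 0.11) and Cox16 (-0.23, SE 0.11), a complex I factor and a pair of complex IV factors, each with an edgeR adjusted p of 0.820. Of 75 nuclear subunits, 70 were below control, with a median of -0.11, and 0 were called. The subunit medians were -0.11, -0.06, -0.27, -0.09 and -0.11 for complexes I to V, beside -0.08, -0.16, -0.09, -0.0033 and 0.03 for their assembly factors. The subunits were shorter (median 716 bases), and with the length trend removed 55 of 75 were below control with a median of -0.03. With effective length offsets instead, 72 of 75 were below control with a median of -0.12. The difference between factors and subunits was not tested.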

How the data were processed

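Cortex RNA of 10 mice was compared by the genotype label. The libraries came from a stranded total RNA kit, per the labels' protocols. Salmon, bcl2fastq, DESeq2 and the build mm10 are listed, without versions, in the submitters' processing notes. The release of the annotation is not given in the sources read here. Per the file headers, the authors deposited for each library estimated counts and TPM of genes and transcripts, with lengths and effective lengths. A deposited score table of 22 genes was not used.

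Estimated counts were rounded to whole numbers, filtered with filterByExpr (minimum count 10, minimum total 15), scaled by TMM and compared by a robust quasi-likelihood test in edgeR 4.0.16 (R 4.3.3). P-values were adjusted by Benjamini-Hochberg over every tested gene, with a threshold of 5%. TPM were only described. Alternatives were DESeq2 1.42.0 (size factors, Wald test), voom of limma 3.58.1, library size alone, other filters, no robust estimation, effective length offsets, a length trend, transcript sums, and libraries left out.

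The genes and lists were chosen with earlier results of these data known. Values per library are given for Atad3a and, in each complex, the factor with the highest control TPM and that with the smallest p. The labels give no batch and no pairing. Positions and promoters came from RefSeq.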

Additional observations from a re-analysis of the deposited data

Results flagged for a closer look

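In 6 of 84 groups (41 factors and Atad3a, 2 groups each) a single library stood apart from the other 4; chance gives this in about 1 in 20 groups. In controls these were Ndufaf5 in control 3, at 30.7 CPM against 27.4 CPM in the next library, and Sco2 in control 1, at 13.9 CPM against 8.14 CPM. In nKO they were Timmdc1 in nKO 4, at 20.5 CPM against 17.9 CPM, and Ecsit in nKO 4, at 18.8 CPM below 24.3 CPM. Cox11 in nKO 5 had 18.6 CPM against 15.4 CPM, and Cox17 in nKO 5 had 14.2 CPM against 12.3 CPM.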

How the results depend on the processing

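With each library left out in turn, 0 factors and 0 of their transcripts were called, the number of factors below control ran from 20 to 30 of 41, and their median log2 fold change from -0.071 without control 2 to 0.0024 without control 3. Of all tested genes, 50.1% to 55.5% were below control in these fits. Atad3a ran from -1.15 to -0.97 and was called each time. Under the other alternatives 0 factors were called, 26 to 29 were below control, and the median ran from -0.08 (without control 1 and nKO 4) to -0.02 (length trend removed). There 51% (limma-voom) to 56.2% (library size alone) of all tested genes were below control. The factors with an unadjusted p under 0.05 were Ndufaf3 and Sco2 in most settings with all 10 libraries, and Cox17 took the place of Sco2 with limma-voom and that of Ndufaf3 with the length trend removed. No paired analysis was possible because the labels give no replicate numbers and nothing that ties an animal of one group to one of the other; the numbers 1 to 5 used here only name libraries. Depth limits the factors of few counts, such as Nubpl with 56 counts in 1 library.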
